A study of Mus musculus with 18 samples.

Results

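The genes of the pigment epithelium and the visual cycle were followed in mouse retinas from birth to adulthood, with and without the kinase Plk3. The set holds 10 genes, chosen by name, and all 10 were found among the 18193 genes on the array, with 18 probe sets between them. These were the visual cycle genes Rpe65, Lrat, Rdh5 and Rgr, the carrier gene Ttr and the pigment genes Tyr, Tyrp1, Dct, Pmel and Mlana. Of these genes 6 had 1 probe set, and for the others the probe set with the highest mean over the 18 arrays led the description.

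The retinal pigment epithelium is a single sheet of pigmented cells that lies against the tips of the photoreceptors. After a photon has turned the chromophore of a visual pigment into its all-trans form, the sheet takes up the spent retinoid, isomerizes it and returns it, and this loop is the visual cycle. Its melanin is made in melanosomes by enzymes that it shares with melanocytes, and it also secretes carriers such as transthyretin. The sheet is not part of the neural retina, so its transcripts in isolated retinas can come with tissue that was carried along, apart from those that the neural retina also makes.

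The 18 arrays, Affymetrix GeneChips for the whole mouse genome, held 3 retina samples each of Plk3-KO mice and WT littermates at postnatal day (P) 0, at P7 and in the adult, whose age in days the labels do not give. The Plk3-KO mice carry a deletion of the first exons of Plk3, were first kept partly on a Black Swiss background and were crossed to C57Bl/6, the strain named for all samples, until the rd1 retinal degeneration allele was gone from the line. Retinas were isolated and washed in buffer. The sources used here do not say how much pigment epithelium remained on them, nor which samples shared a litter. The arrays are described as biological replicates, and p-values measure the spread between these samples.

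Values were log2 MAS5 signals, a scale on which each whole unit is a doubling, and the minimum that the study's methods set for expression, 7, was kept as the limit of firm values. The median probe set of an array lay between 6.3 and 7.2, and between 41.9 and 52.9% of an array's probe sets were above 7. The single Plk3 probe set read 7.4 to 8.0 on adult Plk3-KO arrays and 3.9 to 5.9 on adult WT arrays. At P0 it read 7.5 to 8.2 on Plk3-KO and 6.4 to 7.3 on WT arrays, and at P7 6.1 to 8.1 on Plk3-KO and 6.0 to 6.3 on WT arrays. Its probes lie at the end of the gene that the deletion leaves in place. The study found that end upregulated in knockout retinas by array and by qPCR. It also genotyped the mice by PCR, found the targeted region strongly reduced by qPCR and saw no in situ signal for Plk3 in knockout retinas. The array signal does not show the deletion itself, and the lowest P7 Plk3-KO array lay within the P7 WT range. Genotypes are given as labelled. In the adult, Plk3-KO replicate 3 stood apart, with a correlation to another adult array as low as 0.786 and a 3' minus 5' actin signal of 2.7, against 0.8 to 1.8 on the other 17 arrays. In each adult and P7 group 1 array correlated least with the other 2 of its group: adult Plk3-KO replicate 3 (mean r 0.825), adult WT replicate 3 (0.873), P7 Plk3-KO replicate 2 (0.925) and P7 WT replicate 3 (0.912). Results are also given without these 4, although adult Plk3-KO replicates 1 and 2 (0.874 and 0.895) correlated less with their group than the 2 named P7 arrays. The photoreceptor markers Nrl and Prph2 were high in the adult, where Nrl averaged 15.9 on Plk3-KO arrays and 15.53 on WT arrays.

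A promoter was found in the RefSeq table (build GRCm38.p6) for 7 of the 10 genes, as 250 bases before and 50 bases after the start of transcription. TCATGTG is the core of the M-box, a binding motif of Mitf, the transcription factor of pigment cells. TAATCC is bound by Otx2 and Crx, homeodomain factors of pigment epithelium and photoreceptors. Both were searched on both strands, where they read CACATGA and GGATTA, and they stand in capitals in the 4 promoters below. These promoters are those of the 3 pigment genes with an entry and of Rpe65, which had the largest measured difference between ages. That difference starts from P0 signals below 7. Counted from 7, the adult minus P0 rise was 5.90 for Ttr and at least 5.32 for Rgr and 4.27 for Rpe65.
Tyr, chr7:87493463-87493762, minus strand: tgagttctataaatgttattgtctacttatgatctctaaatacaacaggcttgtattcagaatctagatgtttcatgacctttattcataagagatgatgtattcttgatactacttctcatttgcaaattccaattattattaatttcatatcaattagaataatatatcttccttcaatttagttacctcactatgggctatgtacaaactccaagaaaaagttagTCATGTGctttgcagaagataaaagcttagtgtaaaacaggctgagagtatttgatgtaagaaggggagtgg
Tyrp1, chr4:80833963-80834262, plus strand: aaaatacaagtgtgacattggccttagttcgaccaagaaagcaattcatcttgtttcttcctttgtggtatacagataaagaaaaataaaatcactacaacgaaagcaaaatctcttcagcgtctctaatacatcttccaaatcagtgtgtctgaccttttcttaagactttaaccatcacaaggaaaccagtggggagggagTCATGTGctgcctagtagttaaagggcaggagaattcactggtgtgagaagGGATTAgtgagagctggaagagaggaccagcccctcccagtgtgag
Dct, chr14:118052197-118052496, minus strand: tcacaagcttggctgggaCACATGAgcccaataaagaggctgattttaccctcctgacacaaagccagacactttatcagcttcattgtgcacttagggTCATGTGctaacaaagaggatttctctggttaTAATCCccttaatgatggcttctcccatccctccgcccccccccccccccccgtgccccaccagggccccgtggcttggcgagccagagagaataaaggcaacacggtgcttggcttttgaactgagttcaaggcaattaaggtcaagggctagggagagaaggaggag
Rpe65, chr3:159598931-159599230, plus strand: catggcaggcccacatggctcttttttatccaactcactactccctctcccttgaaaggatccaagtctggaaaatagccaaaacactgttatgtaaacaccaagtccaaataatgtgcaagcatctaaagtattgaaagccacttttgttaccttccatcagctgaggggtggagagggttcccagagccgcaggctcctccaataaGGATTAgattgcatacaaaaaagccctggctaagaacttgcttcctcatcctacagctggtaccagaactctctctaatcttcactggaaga
TCATGTG stood in all 3 pigment gene promoters and in 0 of the 4 visual cycle promoters, against 3.77% of the 32851 promoters in the table. Counted in bases from the start, its first base lay at -22 in Tyr and at -47 in Tyrp1, and Dct held it at -232 and -151. TAATCC stood in 4 of the 7 promoters (Rpe65, Rgr, Tyrp1 and Dct) and in 7.06% of all. The motifs do not overlap each other in these windows, and a match is a description of the letters only. Both motifs were already known from pigment cells or photoreceptors, so their shares are not a test of enrichment.

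To ask how the visual cycle genes change as the retina matures, the arrays of both genotypes were compared between ages. Rpe65, Rdh5 and Rgr rose at both steps, and Lrat had firm signal only for a rise to the adult. From P0 to P7, 9 of the 10 genes of the set were called higher by limma (adjusted p under 0.05), where 17.5% of all probe sets tested were. With values below 7 raised to 7 the count was 7, without Lrat and Mlana, whose means over both genotypes were below 7 at P0 and at P7. Between P7 and the adult 5 of the 10 were called higher, against 16.1% of all, and these 5 were the 4 visual cycle genes and Ttr. The adult exceeded P0 in 9 of the 10, against 26.1% of all. In such bulk samples, more cells of a type and more RNA per cell cannot be told apart.

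Rpe65, the isomerohydrolase that makes 11-cis-retinol, lay at the bottom of the scale at P0 and was high in the adult. At P0 its lead probe set read 1.8, 1.5 and 1.3 in Plk3-KO retinas (replicates 1 to 3, as in every list that follows) and 1.6, 1.5 and 3.0 in WT retinas. At P7 it read 7.2, 8.8 and 8.2 in Plk3-KO retinas, with 8.1, 9.4 and 6.7 in WT retinas. In the adult it read 12.2, 12.1 and 10.2 in Plk3-KO retinas, with 11.5, 11.2 and 10.4 in WT retinas. The 3 ages did not overlap, and replicate 3 was the lowest of each adult genotype. The P7 arrays exceeded those of P0 by 6.28 ± 0.478 (SE, limma adjusted p = 5.31e-08), and the adult arrays exceeded those of P7 by 3.20 (adjusted p = 0.000108). As all P0 arrays were below 7, the rise from P0 is firm only as at least 1.07 at P7 and, where 9.48 was measured, at least 4.27 in the adult.

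Lrat, lecithin retinol acyltransferase, makes the retinyl esters that Rpe65 acts on, and it reached firm signal only in the adult. At P0 it read 2.4, 5.1 and 4.3 in Plk3-KO retinas and 3.2, 4.5 and 4.9 in WT retinas. The P7 arrays gave 5.2, 6.2 and 5.8 in Plk3-KO retinas and 5.3, 6.1 and 5.4 in WT retinas. Adult Plk3-KO retinas gave 9.6, 9.3 and 8.1, and adult WT retinas 8.9, 8.2 and 8.7. The adult arrays exceeded those of P7 by a measured 3.13 (limma adjusted p = 9.36e-05). As all P0 and P7 arrays were below 7, the adult level is firm only as at least 1.80 above either. The step to P7, 1.60, was called (adjusted p = 0.0126) in a probe set that was tested only because its adult signal was high, and it was not called in Plk3-KO arrays alone (adjusted p = 0.126) or WT arrays alone (adjusted p = 0.108), or with the mean of both probe sets (0.89, adjusted p = 0.0564). The other Lrat probe set, which averaged 4.47 at P0, 4.65 at P7 and 7.85 in the adult, was not called at that step (adjusted p = 0.741).

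Rdh5, the 11-cis-retinol dehydrogenase that completes the chromophore, was the steadiest of the set between replicates. At P0 it read 7.6, 7.8 and 7.1 in Plk3-KO retinas and 7.1, 7.4 and 7.2 in WT retinas. At P7 the values were 8.5, 9.0 and 9.0 in Plk3-KO retinas and 8.9, 9.2 and 8.5 in WT retinas. In adult Plk3-KO retinas they were 11.5, 11.2 and 10.5, and in adult WT retinas 11.3, 11.2 and 10.4. No array of a later age overlapped an earlier one. Rdh5 rose by 1.48 ± 0.212 from P0 to P7 (limma adjusted p = 4.66e-05) and by 2.17 from P7 to the adult (adjusted p = 1.73e-06). Its pooled SD within groups, 0.38, was larger than that of 60.4% of probe sets of similar mean.

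Rgr encodes an opsin of pigment epithelium and Müller glia that isomerizes all-trans retinal in light. At P0 it read 6.3, 6.6 and 6.7 in Plk3-KO retinas and 5.6, 8.2 and 6.7 in WT retinas. P7 Plk3-KO retinas gave 9.3, 10.7 and 9.7, and P7 WT retinas 9.4, 10 and 9.7. Adult Plk3-KO retinas gave 13.0, 12.7 and 12.4, and adult WT retinas 12.7, 12.4 and 11.9. The ages did not overlap, and P0 WT replicate 2 stood above the other P0 arrays. Rgr rose by 3.12 ± 0.34 to P7 (limma adjusted p = 2.81e-06) and by a further 2.72 to the adult (adjusted p = 2.03e-05). Since 5 of the 6 P0 arrays were below 7, the first of these is firm only as at least 2.60.

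Ttr encodes transthyretin, which carries thyroxine and, bound to the retinol-binding protein, retinol. Its lead probe set read 10.6, 8.8 and 9.9 in P0 Plk3-KO retinas and 8.2, 10.7 and 9.5 in P0 WT retinas. By P7 it read 12.7, 14.7 and 13.7 in Plk3-KO retinas and 13.3, 13.7 and 13.6 in WT retinas. In the adult it read 15.9, 15.3 and 16.2 in Plk3-KO retinas and 15.6, 15.2 and 14.9 in WT retinas. The ages did not overlap. Ttr rose by 4.0 ± 0.405 to P7 (limma adjusted p = 1.25e-06) and by 1.90 to the adult (adjusted p = 0.00192), and its other 3 probe sets, which may share probes, rose at both steps.

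**Figure D1:**
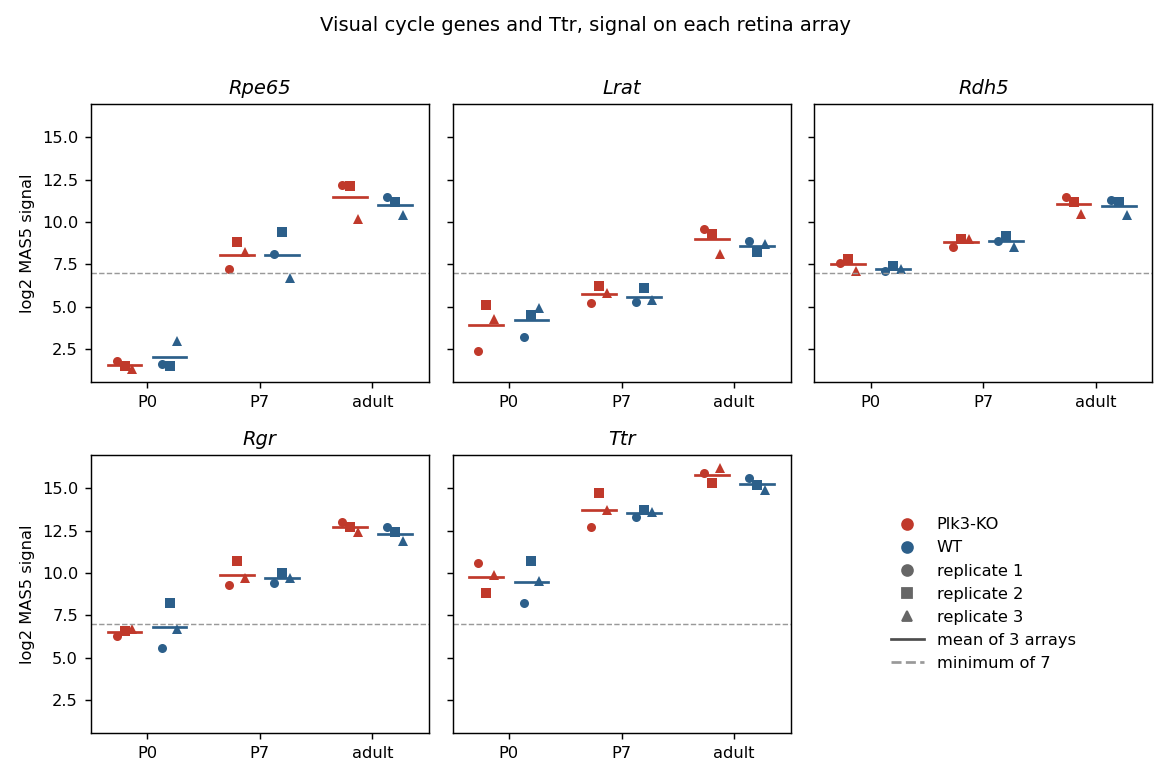
Log2 MAS5 signal (vertical axis) of the lead probe sets of Rpe65, Lrat, Rdh5, Rgr and Ttr on each array at P0, P7 and adult (horizontal axis), with Plk3-KO left of WT at each age. Marker shapes give the replicate, bars the mean of 3 arrays and the dashed line the minimum of 7; signals climb at each step in both genotypes, while Rpe65 is below the line on all P0 arrays and Lrat on all P0 and P7 arrays.

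The pigment genes took a different course: Tyr, Tyrp1 and Dct rose between P0 and P7, Mlana was called at that step between means below 7, and none was called between P7 and the adult. Tyr, tyrosinase, catalyses the first and limiting step of melanin synthesis. It read 7.8, 7.1 and 6.9 in P0 Plk3-KO retinas and 7.3, 7.2 and 6.4 in P0 WT retinas. At P7 it read 7.5, 9.0 and 8.8 in Plk3-KO retinas and 8.4, 9.0 and 8.3 in WT retinas. Adult values were 8.8, 8.2 and 8.8 in Plk3-KO retinas and 8.4, 9.6 and 7.9 in WT retinas. All adult arrays exceeded all P0 arrays, while P7 Plk3-KO replicate 1 lay within the P0 range. Tyr rose by 1.38 ± 0.323 to P7 (limma adjusted p = 0.00324), and the adult differed from P7 by 0.12 (95% interval -0.57 to 0.80, adjusted p = 0.8). The other 2 Tyr probe sets had no group mean above 7 and were not tested.

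Tyrp1, a melanosomal enzyme that stabilizes tyrosinase, varied widely between replicates. At P0 it read 8.9, 8.8 and 6.3 in Plk3-KO retinas and 8.4, 7.5 and 6.8 in WT retinas. P7 values were 9.0, 10.9 and 9.1 in Plk3-KO retinas and 9.8, 9.2 and 9.9 in WT retinas. Adult Plk3-KO retinas gave 9.6, 8.9 and 10.2, and adult WT retinas 9.2, 10.9 and 8.3. The adult arrays overlapped both earlier ages. Tyrp1 rose by 1.87 ± 0.519 to P7 (limma adjusted p = 0.0102), and the adult minus P7 difference was -0.13 (95% interval -1.23 to 0.97, adjusted p = 0.859). Of its other probe sets, 1 was called at the step to P7 as well (1.90, adjusted p = 0.00144), and 1 was not (0.93, adjusted p = 0.0612).

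Dct, dopachrome tautomerase, is the earliest melanin enzyme gene to come on in the embryonic pigment epithelium. It read 10, 9.7 and 9.2 in P0 Plk3-KO retinas and 9.1, 9.1 and 8.6 in P0 WT retinas. On P7 arrays it read 10.5, 12.3 and 11.4 in Plk3-KO retinas and 11.5, 11.5 and 11.5 in WT retinas. In the adult it read 11.9, 11.1 and 12.9 in Plk3-KO retinas and 11.6, 13.3 and 10.8 in WT retinas. Every P7 and adult array exceeded every P0 array, and the adult range enclosed that of P7 apart from replicate 1 of P7 Plk3-KO. Dct rose by 2.17 ± 0.389 to P7 (limma adjusted p = 0.000386), and the adult minus P7 difference of 0.48 was not called (95% interval -0.34 to 1.31, adjusted p = 0.347).

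Pmel, whose protein forms the fibrils on which melanin is laid down, was the only member not called between any ages. At P0 it read 10.2, 9.5 and 9.7 in Plk3-KO retinas and 9.1, 9.4 and 9.2 in WT retinas. At P7 it read 9.4, 11.4 and 10.6 in Plk3-KO retinas and 10.2, 10.6 and 11 in WT retinas. Adult values were 9.6, 8.8 and 10.3 in Plk3-KO retinas and 8.7, 11.2 and 7.8 in WT retinas. The adult arrays spread to both sides of the P0 arrays and reached below those of P7. The P7 minus P0 difference was 1.02 (limma adjusted p = 0.0999), the adult minus P7 difference -1.13 (adjusted p = 0.0673) and the adult minus P0 difference -0.12 (adjusted p = 0.835). These calls hung on single arrays: without adult WT replicate 2 the adult was called lower than P7, by -1.63 (adjusted p = 0.00238), and P7 higher than P0 (adjusted p = 0.0221). Leaving out P7 Plk3-KO replicate 1 also brought both steps past the threshold, at 1.28 and -1.40, and leaving out adult Plk3-KO replicate 3 brought the later one past it, at -1.32.

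Mlana encodes a melanosome protein that takes part in the processing of Pmel, and its signal was low. At P0 it read 5.9, 6.3 and 5.9 in Plk3-KO retinas and 5.0, 0.8 and 2.1 in WT retinas. P7 readings were 6.3, 7.4 and 5.4 in Plk3-KO retinas and 7.0, 6.7 and 7.5 in WT retinas. Adult values were 7.9, 6.0 and 9.6 in Plk3-KO retinas and 7.7, 10 and 6.5 in WT retinas. Every P0 array was below 7. The adult arrays exceeded those of P0 by a measured 3.62 (limma adjusted p = 0.000572), of which at least 0.95 lay above 7. The P7 minus P0 difference of 2.38 (adjusted p = 0.0198) was between means below 7 and was not called without P7 Plk3-KO replicate 2 (adjusted p = 0.0526) or without P0 WT replicate 2 (adjusted p = 0.0561). It was 0.15 with values below 7 raised to 7 (adjusted p = 0.834) and 0.33 in Plk3-KO arrays alone (adjusted p = 0.828).

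**Figure D2:**
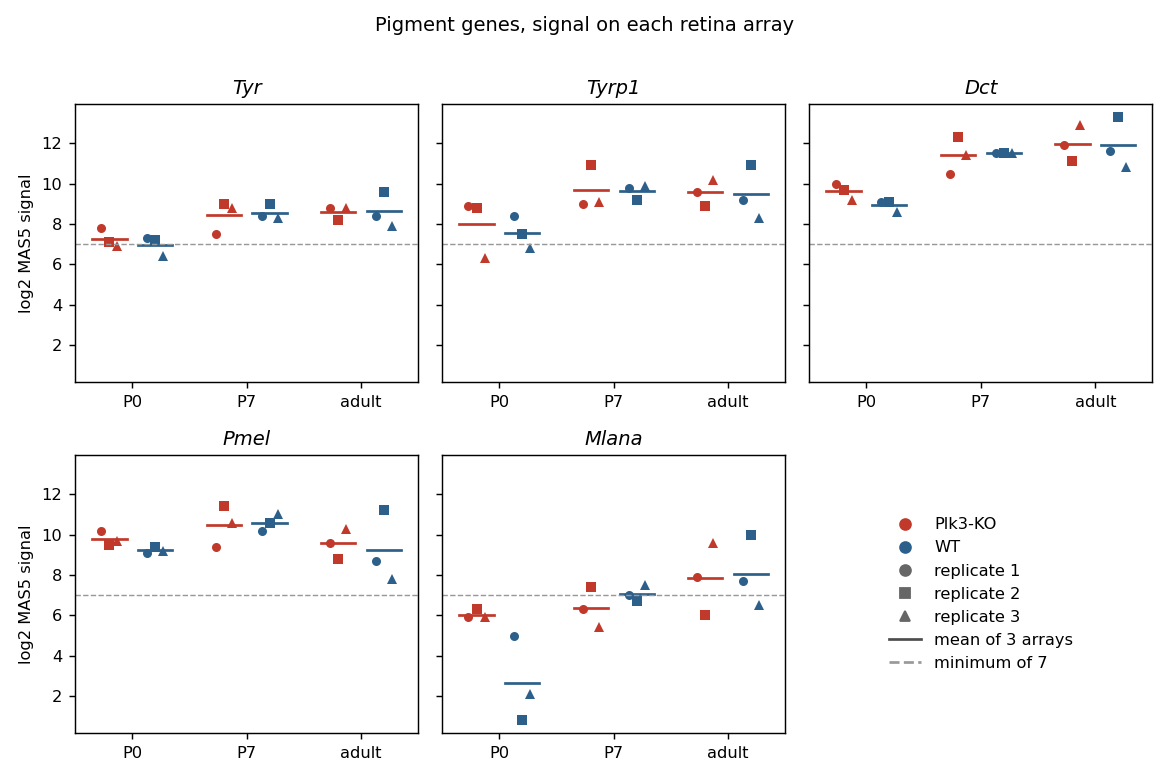
Log2 MAS5 signal (vertical axis) of the lead probe sets of Tyr, Tyrp1, Dct, Pmel and Mlana on each array at P0, P7 and adult (horizontal axis), Plk3-KO left of WT at each age. Bars are means of 3 arrays and the dashed line is the minimum of 7; adult WT replicate 2, a blue square, is the highest adult point in every panel.

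**Figure D3:**
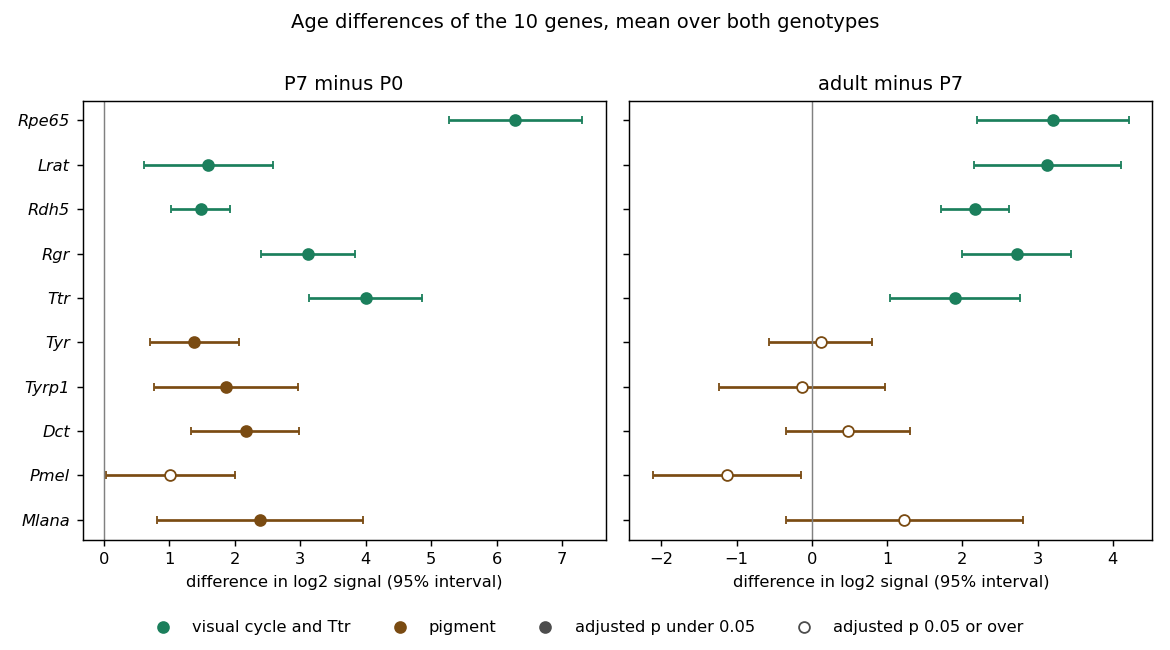
Difference in log2 signal between ages (horizontal axes), averaged over both genotypes, for the 10 genes (vertical axis), with 95% intervals from the limma fit. Filled points passed an adjusted p of 0.05: 9 genes between P0 and P7, among them Lrat and Mlana with means below 7 at both ages, and Rpe65, Lrat, Rdh5, Rgr and Ttr, but no pigment gene, between P7 and adult.

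The split between the visual cycle and pigment genes at the later step rests on each gene's own test, and the difference between the groups of genes was not tested. Without the 4 arrays named above, the same counts were called at each step, 9, 5 and 9. Among all probe sets the calls in either direction were 8910, 8864 and 15637 with every array kept. Without the 4 arrays they were 11516, 14130 and 18630, so the unchanged member counts stood beside more calls among all probe sets. The lowest of the differences called from P7 to the adult was then 2.15, for Ttr, and the highest among pigment genes was 1.55, for Mlana (limma adjusted p = 0.109). Within WT retinas alone 8 genes were called from P0 to P7, and within Plk3-KO retinas alone 5, namely Rpe65, Rdh5, Rgr, Ttr and Dct. From P7 to the adult the calls were 4 in WT and 5 in Plk3-KO retinas. Of the 25085 probe sets tested, 4190 were called in WT and 4093 in Plk3-KO retinas from P0 to P7, in either direction. From P7 to the adult 3429 were called in WT and 3415 in Plk3-KO retinas. The 3 ages did not overlap for Rpe65, Lrat, Rdh5, Rgr and Ttr, and of the whole set 7 genes had P7 above all P0 arrays, 5 had the adult above P7 and 7 had the adult above P0. Of all probe sets tested, 11.3%, 8.25% and 16.8% were so placed.

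Other genes of the same processes, from lists that leave the members out, also moved with age. Of 15 further genes of the visual cycle and retinoid handling that could be tested, 9 rose and 2 fell from P0 to the adult, with a median difference of 1.12 against -0.22 over all probe sets, of which 26.1% were called higher and 36.2% lower. The smallest p belonged to genes that photoreceptors express: Abca4, the retinal transporter of outer segment discs, rose by 5.75, the dehydrogenase gene Rdh12 by 7.08 and Rbp3, the retinoid carrier between photoreceptors and pigment epithelium, by 3.65. Degs1, a desaturase gene, rose by 2.15. Of 18 melanosome and pigmentation genes tested, 10 rose and 1 fell from P0 to the adult, again against 26.1 and 36.2% of all, with a median of 0.80. Here Mc1r, the melanocortin receptor of melanocytes, rose by 1.97, the melanosome glycoprotein gene Gpnmb by 2.75, and Hps3 and Dtnbp1, whose products help to assemble lysosome-related organelles, by 1.05 and 1.07. Mc1r is also 1 of 5 melanocyte markers, of which 4 were tested, and these did not move one way: Mc1r and Sox10 rose, Sox10 by 0.82, while the receptor genes Kit and Ednrb changed by -3.75 and -2.17 (limma adjusted p = 4.85e-06 and 0.00348). Among the melanosome and pigmentation genes the step from P7 to the adult had 4 called higher and 2 called lower, where 16.1 and 19.2% of all were, and these 2 were the copper pump gene Atp7a at -0.77 and the melanosome motor gene Myo7a at -1.70. Signals below 7 limit some of these sizes. At P0 the Plk3-KO and WT means were 6.7 and 6.97 for Rdh12 and 6.83 and 6.77 for Mc1r. They were 6.5 and 5.93 for Gpnmb and 5.93 and 6.6 for Sox10. Adult means were 5.23 and 6.67 for Kit, and Myo7a averaged 6.83 in adult WT retinas.

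Genes of pigment epithelium function and transport were called higher at both steps for the larger part of the list. Of 31 tested, 20 were called higher and 3 lower from P0 to P7 (17.5 and 18% of all), 18 higher and 2 lower from P7 to the adult, and 20 higher and 5 lower over the whole interval. The median adult minus P0 difference was 2.22. By smallest p the lead genes were Car14, a membrane carbonic anhydrase, which rose by 2.95, the keratin gene Krt18 by 3.05, the lactate transporter gene Slc16a1 by 3.12 and Gas6, a ligand of the phagocytosis receptor Mertk, by 3.48. The 5 called lower from P0 to the adult were Dapl1 (-2.13), Cdh1 (-1.62), Ezr (-1.17), Itgb5 (-0.58) and Otx2 (-0.57). Best1, with group means of 2.6 to 3.5, and Best2, Cldn19, Cldn10, Cdh3 and Tfec had no group mean above 7 and were not tested. Several of these genes are also expressed by Müller glia, vessels or photoreceptors.

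To ask whether Plk3 loss altered these genes, Plk3-KO and WT retinas were compared at each age, and no member was called. Limma called 0 of the 6 members tested at P0, 0 of 9 at P7 and 0 of 10 in adult retinas, and 0% of all probe sets at each age. At an unadjusted p under 0.05, 0 members stood in any of these comparisons, against 0.376% of all probe sets at P0, 0.575% at P7 and 4.8% in adult retinas. The t-test that the study's methods name called 503 probe sets at P0, 250 at P7 and 660 in the adult at that unadjusted level. Averaged over ages, the Plk3-KO minus WT differences ran from -0.01 for Rpe65 to 0.82 for Mlana, with a median of 0.15. Both of these ends include P0 signals below 7, and with values below 7 raised to 7 they were 0.12 for Rpe65 and -0.03 for Mlana.

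The intervals set what size of difference these arrays could miss. Rdh5 was bounded most narrowly, with an adult mean difference of 0.10 and a 95% interval of -0.54 to 0.74. For Rpe65 the adult difference was 0.47 with an interval of -0.97 to 1.90, and for Dct it was 0.07 with an interval of -1.10 to 1.23. Mlana had the widest, -2.46 to 1.99 around -0.23. A doubling in adult Plk3-KO retinas lay inside the interval of every member except Rdh5 and Tyr.

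The 2 tested members whose genotypes did not overlap were the pigment genes Dct and Pmel at P0. Dct averaged 9.63 on P0 Plk3-KO arrays against 8.93 on P0 WT arrays, which differ by 0.70 (95% interval -0.47 to 1.87). Pmel averaged 9.8 on P0 Plk3-KO arrays against 9.23 on P0 WT arrays, which differ by 0.57. Each gave an exact two-sided permutation p of 0.1, the smallest that 3 arrays against 3 allow, and 1.74% of all probe sets tested at P0 had all Plk3-KO arrays above all WT arrays. Mlana was also higher on all P0 Plk3-KO arrays, but below 7 on all 6 arrays and so untested. No member was called by limma in the change of the genotype difference between ages. At an unadjusted p under 0.05 only Mlana stood, from P0 to the adult and from P0 to P7, as did 1.88% and 0.51% of all probe sets, and both rest on its P0 signals below 7, so no size is given. On the same P0 arrays the mean level of 9 lens genes was 11.29, 12.57 and 6.64 in Plk3-KO retinas and 8.56, 3.50 and 13.97 in WT retinas, and 7 genes of choroid and sclera mesenchyme averaged 7.31, 6.47 and 5.67 in Plk3-KO retinas and 7.43, 5.60 and 5.20 in WT retinas. Their part in the pigment gene values was not tested.

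**Figure D4:**
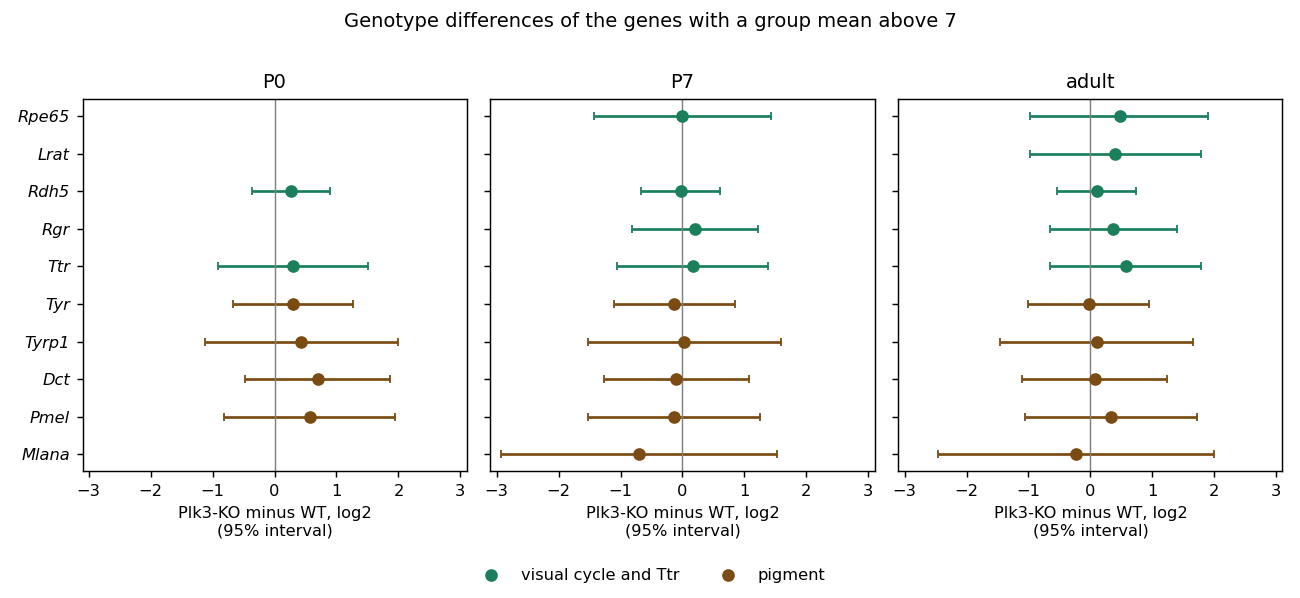
Plk3-KO minus WT difference in log2 signal (horizontal axes) with 95% intervals from the limma fit, for each gene (vertical axis) with a group mean above 7 at P0, P7 and adult. Every interval includes 0, and no point is drawn for Rpe65, Lrat, Rgr and Mlana at P0 and for Lrat at P7.

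In the adult, the pigment genes moved together from array to array. After the mean of each age and genotype group was taken off, r was between 0.88 and 1.0 for their pairs over the 6 arrays. For the pairs of visual cycle genes it was between 0.56 and 0.95 on these arrays. On such group-centred values the pigment pairs ran from 0.02 to 0.92 at P7 and from -0.43 to 0.92 at P0. The lowest at P0 was Pmel with Mlana, and every P0 Mlana signal was below 7. The deviations that follow are from the age mean, over both genotypes. In the adult, Plk3-KO replicate 3 was above the age mean for all 5 pigment genes, by a median of 0.90. WT replicate 2 was the highest of the 6 arrays for all 5, by a median of 1.38 above the age mean, while WT replicate 3 was the lowest for 4 of them. For the visual cycle the order differed: Plk3-KO replicate 1 was the highest for all 4 genes, Plk3-KO replicate 3 was below the age mean for all 4, at a median of -0.61, and WT replicate 2 lay at a median of -0.09. The array with the highest 3' minus 5' actin signal was thus high in pigment genes and low in visual cycle genes, and the part of RNA quality was not tested.

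At P7 the extremes were shared by both sets. Plk3-KO replicate 2 was above the age mean for 10 of 10 genes and the highest for 7, and Plk3-KO replicate 1 was below the mean for all 10 and the lowest for 8. WT replicate 3 was above the age mean for 4 of the 5 pigment genes and below it for all 4 visual cycle genes. At P0 Plk3-KO replicate 1 was the highest for 4 of the 5 pigment genes, by a median of 0.72 above the mean, and for 0 of the 4 visual cycle genes.

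**Figure D5:**
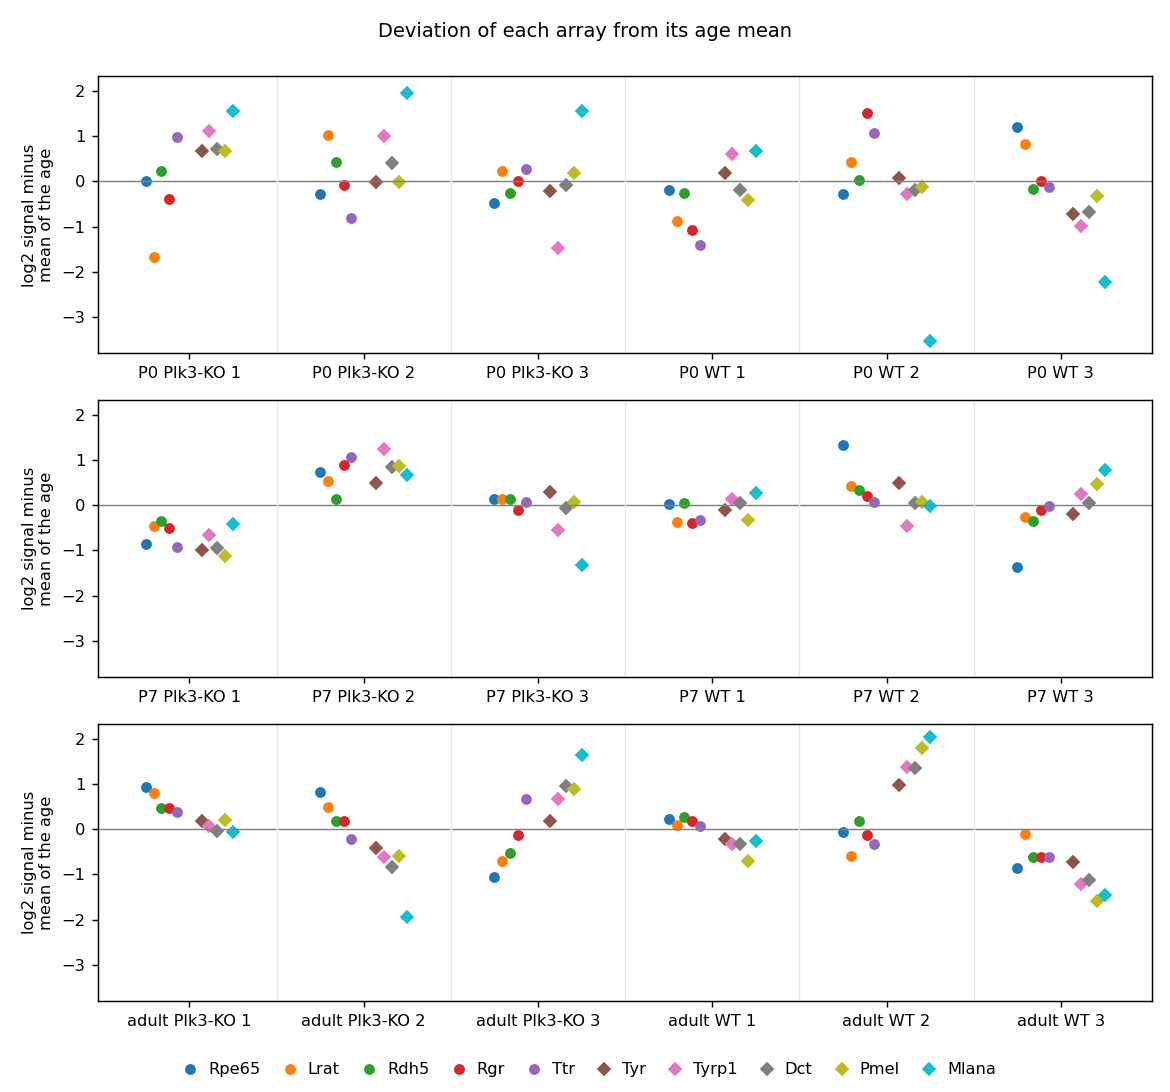
Log2 signal of each gene minus its mean over the 6 arrays of that age (vertical axis) for each array (horizontal axis), Plk3-KO arrays left of WT arrays, with circles for the visual cycle genes and Ttr and diamonds for the pigment genes. In the adult the diamonds of WT replicate 2 are all above 0 while its circles lie between -0.60 and 0.18, and at P7 all points of Plk3-KO replicate 2 are above 0.

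After each group's mean was taken off, the 45 pairs of members were correlated over the 18 arrays, with exact permutation of arrays within groups. Among the 10 pairs of pigment genes r ran from 0.47 to 0.94 with a median of 0.70, and 5 pairs had a Benjamini-Hochberg adjusted p under 0.05 on r and 6 on rho. Tyrp1 with Mlana passed on both, although Mlana was below 7 on all P0 arrays and on 3 of the 6 P7 arrays. The closest pair was Dct and Pmel, with r = 0.94 and rho = 0.81 (exact permutation p = 0.00154, adjusted p = 0.0204), and r = 0.89 without adult WT replicates 2 and 3, the arrays farthest out. Within ages their r was 0.48 at P0, 0.92 at P7 and 0.98 in the adult. Dct followed Tyr with r = 0.86 and rho = 0.85, and Tyrp1 with r = 0.83 and rho = 0.89 (exact permutation adjusted p = 0.0116 for each). Among the 20 pairs of a visual cycle gene with a pigment gene r ran from -0.42 to 0.49 with a median of 0.02, and 0 pairs passed on either measure. Within ages these pairs ran from -0.93 to 0.70 at P0, from -0.25 to 0.93 at P7 and from -0.71 to 0.36 in the adult. Some of these values rest on signals of Lrat, Rgr and Mlana below 7. Among the 6 pairs of visual cycle genes r ran from 0.30 to 0.76, and only Rpe65 with Rdh5 passed on Pearson's r (r = 0.76, rho = 0.68, exact permutation adjusted p = 0.0204, 0.65 without P7 WT replicate 3 and adult Plk3-KO replicate 3). On rho 3 of the 6 passed, Rpe65 with Rdh5, Lrat with Rgr (0.66) and Rdh5 with Rgr (0.67), each at an exact permutation adjusted p of 0.0478. Lrat was below 7 on all P0 and P7 arrays and Rgr on 5 of the 6 P0 arrays, so Lrat with Rgr rests largely on signals below the firm limit. For Rpe65 and Rdh5 r was 0.07 at P0, where Rpe65 was at the bottom of the scale, 0.96 at P7 and 0.93 in the adult.

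This movement was wide for probe sets of such signal. The pooled SD within groups was 1.02 for Tyrp1, 0.76 for Dct, 0.91 for Pmel and 0.79 for Ttr, where the median probe set of similar mean had 0.34, 0.29, 0.31 and 0.33. Between 97.7 and 98.6% of probe sets of similar mean varied less than these 4.

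The genes whose deviations were most like those of Dct, of 12099 genes compared over the 18 arrays, were Gpnmb (r = 0.87), Tpd52l1 (0.85), Oca2 (0.84), Itpripl2 (0.83) and Acta2 (0.82). For Rgr they were Thbs4 (r = 0.91), Clic6 (0.88), Col8a1 (0.81), Ndrg2 (0.79) and Fam3c (0.78). Without the 2 arrays farthest out r ran from 0.68 for Acta2 to 0.80 for Oca2 among the genes like Dct, while among those like Rgr it was 0.73 for Thbs4 and Fam3c, 0.70 for Ndrg2, 0.61 for Clic6 and 0.48 for Col8a1. These genes were picked as the highest of all and are a description, and the points share their arrays. The 2 sets of names have no gene in common, which for such short lists out of 12099 genes does not set them apart. Thbs4 averaged 3.8 on P0 Plk3-KO and 3.0 on P0 WT arrays, so its r rests in part on signals below 7.

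Marker lists of neighbouring tissues were read on the same adult arrays. The 7 genes of choroid and sclera mesenchyme averaged 6.67 to 7.0 on the Plk3-KO arrays and 7.06 on WT replicate 2, with 6.60 and 6.57 on WT replicates 1 and 3. Of these genes 4 of 7 were above 7 on WT replicate 2, and 1 to 3 of 7 on the other adult arrays. On WT replicate 2 these were Fmod at 9.4, Dcn at 7.6, Col1a2 at 7.5 and Col6a3 at 7.3. There Lum read 6.7, Col3a1 6.2 and Col1a1 4.7, and Col1a1 and Col3a1 were below 7 on every adult array. The 9 lens genes averaged 9.49, 5.54 and 10.56 in Plk3-KO retinas, with 10.66, 12.26 and 9.12 in WT retinas, and all 9 were above 7 on WT replicate 2 only. The 5 melanocyte markers averaged 7.18, 7.06 and 5.46 in Plk3-KO retinas, with 6.56, 6.62 and 6.7 in WT retinas. Of these markers, Pax3, below 7 on every array, averaged 5.23 in adult Plk3-KO and 3.1 in adult WT retinas. Kit and Ednrb went the other way, with Kit at 5.23 in adult Plk3-KO and 6.67 in adult WT retinas. Ednrb averaged 6.4 in adult Plk3-KO and 7.63 in adult WT retinas. On adult Plk3-KO replicate 3, where the list mean was 5.46, Kit read 2.8 and Ednrb 3.4. Sox10 averaged 7.13 in Plk3-KO and 7.03 in WT, and Mc1r 8.83 in Plk3-KO and 8.7 in WT. The part of neighbouring tissue in the array-to-array movement was not tested.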

How the data were processed

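Total RNA of isolated retinas was amplified, labelled with biotin and hybridized to Affymetrix GeneChips for the mouse genome. The authors computed background-adjusted, normalized MAS5 signals with the Bioconductor affy package, with no version stated, and deposited them as log2 values with 1 decimal for 45101 probe sets on 18 arrays. The deposited values were used without further scaling. The 64 controls were left out. Of the rest, 34945 carried 1 gene symbol and were used for named genes, while 932 had more than 1 symbol and 9160 lacked one. Symbols came from the platform annotation, matched by gene ID to the RefSeq table of GRCm38.p6.

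In R 4.3.3, limma 3.58.1 fitted 1 mean per age and genotype to all 18 arrays (12 residual and 4.07 prior degrees of freedom, variance moderated along the mean). Genotypes at 1 age were tested over probe sets with a group mean above 7 at that age, and all other contrasts over those above 7 in any of the 6 groups, with Benjamini-Hochberg adjustment over all of them and a threshold of 0.05. Contrasts were between genotypes at each age and over ages, between ages over genotypes, and between ages in the genotype difference. Single values were tested by exact two-sided permutation of arrays. The fit was tested on simulated data. Alternatives were quantile normalization, no filter, values below 7 raised to 7, robust moderation (statmod 1.5.0), the mean of a gene's probe sets, 1 genotype or 1 age alone, the t-test of the methods with a pooled variance, a replicate block, and leaving out 1 array or 4 arrays. The 10 genes are described by lead probe set, and of each gene list at most 4 genes with the smallest p in a comparison are named. The genes and lists were chosen with earlier results of these data known. The number of arrays limits the precision.

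Same-numbered Plk3-KO and WT arrays deviated together with r between -0.61 and 0.54, so numbers were not treated as pairs.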

Additional observations from a re-analysis of the deposited data

How the results depend on the processing

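Under the alternatives the number of members called stayed within 1.5 times the reported one, with 1 exception, the 5 members called from P0 to P7 in Plk3-KO arrays alone. Leaving out 1 array at a time gave 8 to 10 members called from P0 to P7, 5 to 6 from P7 to the adult, 9 from P0 to the adult and 0 in each genotype comparison. With the replicate block, 0 members were called between genotypes at any age or over ages, and the pairing changed no call. Quantile normalization shifted the median of all probe sets by 0.11 for P7 minus P0, to 0.01 against -0.10, and by 0.14 for adult minus P0, to -0.08 against -0.22, with the same numbers of members called.

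The genotype differences over ages, none of them called, changed sign in some settings. With values below 7 raised to 7 they were -0.01 for Tyr, -0.03 for Mlana and 0.12 for Rpe65, and Lrat differed by 0 between P7 and P0. Without the 4 adult and P7 arrays that each correlated least within their group they were -0.27 for Tyrp1, -0.25 for Tyr, -0.27 for Dct, -0.19 for Pmel and -0.07 for Rgr, while Tyrp1 differed by 0.38 between adult and P7 and Pmel by 0.06 between adult and P0. With the mean of its probe sets Tyr gave 0, and in WT arrays alone Pmel differed by 0 between adult and P0. With 1 array left out the genotype differences ran from -0.11 to 0.34 for Lrat, -0.12 to 0.32 for Rgr, -0.24 to 0.21 for Rpe65, -0.08 to 0.21 for Tyr and -0.02 to 0.47 for Tyrp1. Adult minus P7 ran from -0.13 to 0.30 for Tyr and from -0.49 to 0.18 for Tyrp1, and adult minus P0 from -0.61 to 0.24 for Pmel. The cause was not tested.

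Over all probe sets, 0 were called between genotypes as reported. Without the 4 arrays 338 were called in the adult, 16 over ages, and 23 and 10 in the change of the genotype difference from P0 and from P7 to the adult. With values raised to 7 the counts were 11 in the adult, 1 at P0 and 1 over ages. With 1 array left out they ran from 0 to 105 in the adult, the highest without WT replicate 3, from 0 to 3 over ages and in the change from P0 to the adult, from 0 to 2 in that from P7 to the adult, and from 0 to 1 at P7 and at P0. None of these calls was a member. The t-test of the methods called 503 at P0, 250 at P7 and 660 in the adult at an unadjusted p under 0.05. Between ages, against 8910 (P0 to P7), 8864 (P7 to adult) and 15637 (P0 to adult), 1 value per gene gave 4521, 4174 and 6897, Plk3-KO arrays alone 4093, 3415 and 10321, and WT arrays alone 4190 and 3429 at the first 2 steps, with fewer features or arrays in each, while the fit without the 4 arrays gave 14130 from P7 to adult. Among the members, signals below 7 limit sizes for Rpe65, Lrat and Mlana (all P0 arrays), Lrat (all P7 arrays) and Rgr (5 of 6 P0 arrays). Among the listed genes they do so for Rdh12, Mc1r, Gpnmb and Sox10 at P0, and for Kit and Myo7a in the adult.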
